A study of Rattus norvegicus with 3 samples.

Results

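The genes described here are 7 interferon-stimulated genes: Irf7, Isg15, Usp18, Ifit2, Ifit3, Mx1 and Mx2. They were chosen by name, as genes whose baseline level in mature thymocytes and in thymic epithelial cells (TEC) was of interest, and all 7 were found among the 34034 genes of the count tables. Each was followed across the cell labels that the authors gave to 2 droplet single-cell RNA libraries prepared from the thymus of Lewis rats, an inbred strain, at 8 weeks of age. The stromal library was described as cells negative for CD45, the surface protein of blood-derived cells. They had been released with Liberase TH and DNase I, enriched magnetically and sorted. Its annotated cells still included 505 labelled Myeloid, 411 labelled Thymocyte and 179 labelled B cell. The thymocyte library held developing T cells released with collagenase D and DNase I. No group had a treatment or an altered gene, so the values are those of an unchallenged thymus as far as the labels say. Each library was 1 sample, and the labels do not give how many animals it came from. With 1 sample per group no test between groups was possible, and every interval below is a 95% interval for counting error alone. A spatial section of the same study was not analysed here.

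Interferons are secreted proteins that cells make on sensing nucleic acid. Type I interferons act through the receptor of Ifnar1 and Ifnar2, and type III through Ifnlr1 and Il10rb. Both pass through Jak kinases to a complex of transcription factors that includes Irf9 and binds the interferon-stimulated response element, a repeat of the bases GAAA in the promoters of target genes. Many of these targets are also read at a low level without infection, often called tonic signalling, and in the thymus such signals have been described around medullary epithelium. Irf7 is the transcription factor that amplifies interferon production. Isg15 is a ubiquitin-like protein that is joined to other proteins, and Usp18 removes it and also damps the type I receptor. Ifit2 and Ifit3 are antiviral proteins built of tetratricopeptide repeats, and Mx1 and Mx2 are dynamin-like GTPases that block viruses.

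The promoters of 3 of the 7 genes, Ifit3, Irf7 and Mx1, were in the RefSeq promoter table of build GRCr8, as 250 bases before to 50 bases after the start of the gene. They were searched for the core of the response element, 2 copies of GAAA with any 2 bases between them, on both strands. Ifit3 and Irf7 each held 1 match and Mx1 held none in this window, where 3.92% of all 33469 promoters of the same length held at least 1. The matches read on the opposite strand, so they appear below as TTTC, and they begin 44 bases before the start of Ifit3 and 69 bases before that of Irf7. A stretch of 50 bases around each match is shown to let the element be seen in its setting, 5′ to 3′ on the strand of the gene, with the match in capitals. The stretch of Ifit3 is chr1:241527262-241527311 on the plus strand, and that of Irf7 is chr1:205800063-205800112 on the minus strand.
Ifit3: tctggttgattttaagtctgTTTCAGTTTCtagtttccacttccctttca
Irf7: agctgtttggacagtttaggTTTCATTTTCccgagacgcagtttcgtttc
A match describes these letters and does not show that a factor binds there. For comparison, 20 of the 31 other type I interferon-stimulated genes that were in the table held a match.

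The stromal library held 13226 annotated cells with 131624350 UMIs (unique molecular identifiers, tags that let each captured RNA molecule be counted once), and the thymocyte library 8546 cells with 64440495 UMIs. Of these, 52435 and 4631 UMIs came from the 7 genes. Median depth was 9087.5 UMIs per stromal cell and 3994 per cell of the thymocyte library. Levels are given as CPM, UMIs of the gene per 1000000 UMIs of the label, for labels of at least 20 cells, which were 24 in the stromal and 21 in the thymocyte library. The labels were checked against lists of marker genes. A list of 6 mature thymocyte genes summed to between 1136 and 2102 CPM in the 4 mature labels, against 49.1 CPM in double-positive cells. A list of 6 mTEC2 genes that includes Aire summed to 1952 CPM in mTEC2, 127 CPM in mTEC1 and 11.8 CPM in cTEC. There were 38 barcodes in both libraries, 28 of them annotated in both. Because cells of a label were pooled, fewer cells using a gene and less RNA of it per cell cannot be told apart from the pooled level alone, and shares of cells are given beside it.

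Across the stromal library, different labels led for different genes. TMC4, a label of thymic mesenchymal cells, was highest for Irf7, Mx1 and Mx2. The proliferating medullary label mTEC-prol was highest for Isg15 and Usp18, and capEC, an endothelial label, for Ifit2 and Ifit3. Cells labelled Myeloid were lowest for Irf7, Isg15, Usp18 and Mx2. They were blood-derived cells in a library described as negative for CD45. Whether they stand for the myeloid cells of the thymus was not tested. In the thymocyte library the mixed label B+myeloid was the highest for Irf7 and Ifit3. For Irf7 and Mx2 the highest label was TMC4 under every alternative run. For the other 5 genes at least 1 alternative put another label first: mimetic(muscle) for Isg15, TMC4 for Usp18, mTEC2 for Ifit2, vEC or aaTEC2 for Ifit3 and mimetic(tuft) for Mx1. In mTEC2, 1 cell held 80 of the 94 UMIs of Ifit2. The mimetic labels are epithelial cells that use gene programmes of other tissues.

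Irf7 was at 208 CPM in TMC4 (199 to 216, from 2399 UMIs), 163 CPM in capFb, a further fibroblast label, and 12.8 CPM in Myeloid cells. The interval of TMC4 overlapped that of no other label. Isg15 was at 316 CPM in mTEC-prol (287 to 347), 286 CPM in mimetic(muscle), 217 CPM in mTEC1 and 10.6 CPM in Myeloid cells. Epithelial labels, mimetic ones included, stood at the top for Isg15, and the intervals of the first pair overlapped. Not all epithelial labels were high, since early Pr at 63.9 CPM and cTEC at 60.2 CPM stood in the lower part of the order. Usp18 was at 144 CPM in mTEC-prol (125 to 166), 142 CPM in TMC4, 121 CPM in mimetic(tuft) and 114 CPM in mTEC2. The other 3 labels overlapped mTEC-prol, so their order was not resolved, and the lowest label was Myeloid with 4.64 CPM.

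For the Ifit genes the 3 endothelial labels stood first. Ifit2 was at 207 CPM in capEC (194 to 221), 157 CPM in aEC and 142 CPM in vEC, with mTEC2 next at 107 CPM and MEC lowest at 5.69 CPM from 3 UMIs. The place of mTEC2 rested on 1 cell, which held 80 of its 94 UMIs. Ifit3 was at 65.2 CPM in capEC, 64.7 CPM in vEC and 52.4 CPM in aEC, which overlapped, against 24.7 CPM in the next label, nmSC, from 7 UMIs. Ifit3 was lowest in mTEC2, with 1 UMI in 61 cells. The endothelial labels were thus high for both Ifit genes at once.

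The Mx genes shared TMC4 as their highest label. Mx1 was at 198 CPM there (190 to 206), 103 CPM in mimetic(tuft), 89.9 CPM in TMC3 and 3.17 CPM in aaTEC1 from 2 UMIs. Mx2 was at 202 CPM in TMC4 (193 to 210), 186 CPM in mimetic(muscle), 139 CPM in mimetic(tuft) and 4.31 CPM in Myeloid cells. TMC4 overlapped no other label for Mx1 and only mimetic(muscle) for Mx2. In the order of each gene, between 20 and 23 of the 23 neighbouring pairs of labels overlapped, so ranks in the middle of the order were not resolved.

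In the thymocyte library, DP-sig, a label of double-positive cells (DP, which carry both Cd4 and Cd8), was lowest for Isg15, Usp18, Ifit2 and Mx2. This rested on 1 UMI each of Isg15, Ifit2 and Mx2 and 5 of Usp18, so the lowest rank was not resolved. The intervals of DP-sig overlapped those of the DP label for Isg15, Usp18 and Ifit2, but not for Mx2. The label intCD4 was highest for Isg15, Usp18, Ifit2 and Mx2, Mature CD4-2 for Mx1, and the mixed label B+myeloid for Irf7 and Ifit3. Alternatives put B+myeloid or Pre-Treg first for Ifit2 and Mature CD8-1 for Mx1. Isg15 was at 226 CPM in intCD4 (174 to 288), 142 CPM in Treg, 103 CPM in Mature cycling T and 0.776 CPM in DP-sig. The first pair overlapped. Usp18 was at 337 CPM in intCD4 (273 to 411) and 75.0 CPM in Mature CD4-2, which did not overlap, and 3.88 CPM in DP-sig. Mx1 was at 137 CPM in Mature CD4-2 (117 to 159), and 5 labels overlapped it: intCD4, Mature CD8-1, Treg, B+myeloid and Mature CD4-1. Pre DP-sig had 0 UMIs of Mx1. Irf7 was at 73.6 CPM in B+myeloid (63.2 to 85.3), which no other label overlapped, and 31.3 CPM in intCD4, the next label. Of the 66 UMIs of Ifit3 in the thymocyte library, 55 were in B+myeloid. In the order of each gene, 19 or 20 of the 20 neighbouring pairs of labels overlapped.

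**Figure D1:**
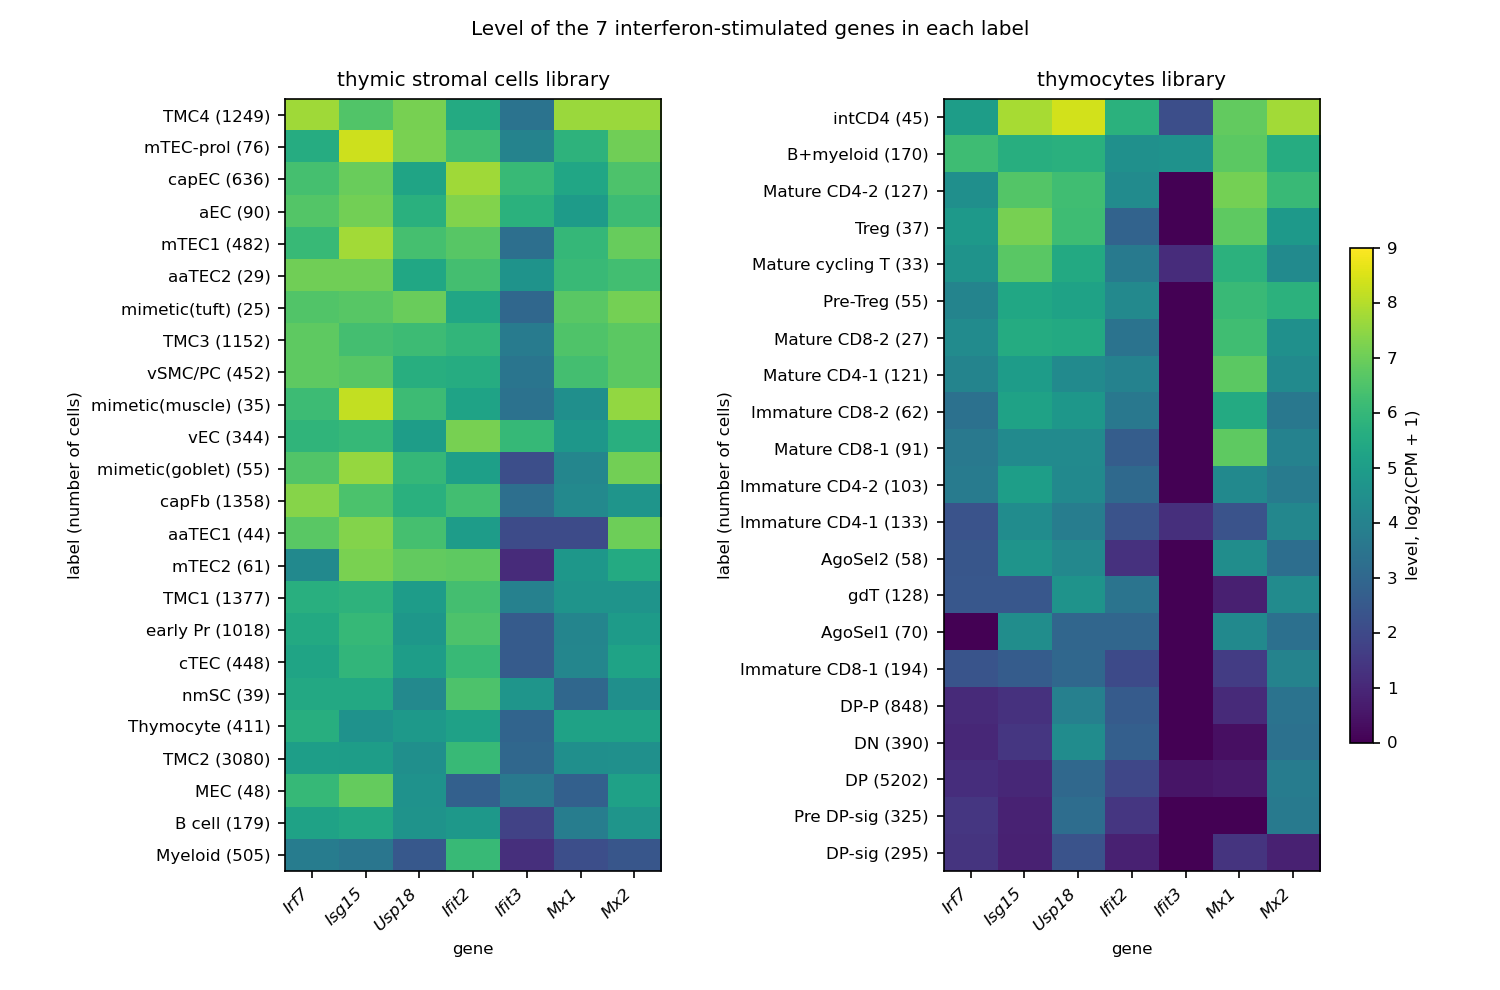
Level of each gene in each label of at least 20 cells, as log2(CPM + 1) on 1 colour scale for both libraries, with the number of cells in parentheses and labels ordered by their mean over the 7 genes. TMC4 reaches 208 CPM for Irf7 and intCD4 reaches 337 CPM for Usp18, while the DP label lies between 0.423 and 12.8 CPM.

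The main question in the thymocyte library was how the mature single-positive cells (mature SP, the 4 labels of mature CD4 and CD8 cells, 366 cells) differed from the DP label (5202 cells). All 6 genes with at least 20 UMIs over both sides were at least 2-fold higher in mature SP cells. Of all 12666 genes with as many UMIs, 11.2% were at least 2-fold higher and 21.0% at least 2-fold lower. These 6 genes were chosen with earlier results of these data known. The shares of all genes are thus no yardstick for this count. Isg15 and Mx1 passed the cut of 20 UMIs through the mature side, with 187 and 412 UMIs there and 19 and 10 in DP cells. Irf7, Ifit2, Mx2 and Usp18 reached the cut in DP cells alone. The median ratio of the 6 genes was 9.54, against 0.80 over all genes tested, and dividing by the median ratio of well-covered genes, a shift of -0.23 on the log2 scale, left all 6 at least 2-fold higher.

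Mx1 differed by the widest ratio. It was at 104 CPM in Mature CD4-1, 137 CPM in Mature CD4-2, 109 CPM in Mature CD8-1 and 74.9 CPM in Mature CD8-2, against 0.529 CPM in DP cells from 10 UMIs. The ratio of mature SP over DP was 215 (116 to 451), and every mature label lay far above DP. A UMI of Mx1 was found in 58.7% of mature SP cells (exact Clopper-Pearson interval 53.5 to 63.8) and in 0.192% of DP cells, whose median depths were 9571.5 and 3205.5 UMIs. With every cell thinned to 1000 UMIs the shares were 13.9% and 0.0387%.

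Mx2 behaved differently from its paralogue. It was at 18.7, 67.8, 14.8 and 21.7 CPM in Mature CD4-1, Mature CD4-2, Mature CD8-1 and Mature CD8-2, against 12.8 CPM in DP cells, so that only Mature CD4-2 stood clear of the DP level. The ratio was 2.72 (2.18 to 3.39) with all 4 labels and 1.37 without Mature CD4-2, under the 2-fold threshold. It was also under 2 after thinning, at 1.45, and with the authors' first clusters in place of the labels, at 1.91. A UMI of Mx2 was found in 16.9% of mature SP and 4.08% of DP cells, and after thinning in 1.64% and 1.43%.

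Isg15 was at 30.5, 94.9, 19.0 and 45.9 CPM in the same 4 labels and at 1.00 CPM in DP cells, a ratio of 51.3 (31.9 to 87.1). Usp18 was at 18.7, 75.0, 19.0 and 43.5 CPM, against 7.30 CPM in DP cells, a ratio of 5.62 (4.43 to 7.14). Every mature label lay above DP for both members of this ubiquitin-like system. Labels that are not mature overlapped Mature CD4-1 and Mature CD8-1, however. Usp18 was at 19.6 CPM in double-negative (DN) cells and 23.9 CPM in gdT, where Isg15 was low, at 1.66 and 4.41 CPM. Isg15 was at 35.1 CPM in Immature CD8-2 and 31.9 CPM in Immature CD4-2. Without Mature CD4-2 the ratio was 28.5 for Isg15 and 3.17 for Usp18. A UMI of Isg15 was found in 21.6% of mature SP cells (17.5 to 26.2) and 0.269% of DP cells, and after thinning in 4.92% and 0.0387%.

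Irf7 was at 15.7, 21.5, 11.6 and 19.3 CPM in the 4 labels and at 1.27 CPM in DP cells, a ratio of 13.5 (8.28 to 22.5). Ifit2 was at 14.8, 19.1, 5.27 and 9.67 CPM, against 2.80 CPM, a ratio of 4.72 (3.12 to 7.11). Ifit3 had 0 UMIs in all 4 mature labels. That is 0 of 3631970 UMIs, with an exact interval of 0 to 1.02 CPM. It is also 0 of 366 cells, with an exact interval of 0 to 1.00% of cells. DP cells had 8 UMIs of Ifit3, or 0.423 CPM, which lies inside the interval of mature SP. With 3 UMIs in place of 0, the ratio of mature SP over DP was bounded at 1.95 at most. A difference below that bound, in either direction, was not detectable at this depth.

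Other cell types were scarce in the mature labels. A list of 9 myeloid genes summed to between 3 and 6 UMIs per mature label, or 2.95 to 7.25 CPM, against 8.19 CPM in DP cells, with Lyz2 and Csf1r at 0 in all 4. A list of 5 genes of plasmacytoid dendritic cells, which make much type I interferon, was at 0 UMIs in all 4 mature labels. Thinning gave a ratio of 113 for Isg15 (34.3 to 586), 395 for Mx1, 37.6 for Irf7 (9.03 to 220.2), 11.3 for Ifit2 and 9.03 for Usp18, and the first clusters gave 76.7 for Mx1 and 33.8 for Isg15.

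**Figure D2:**
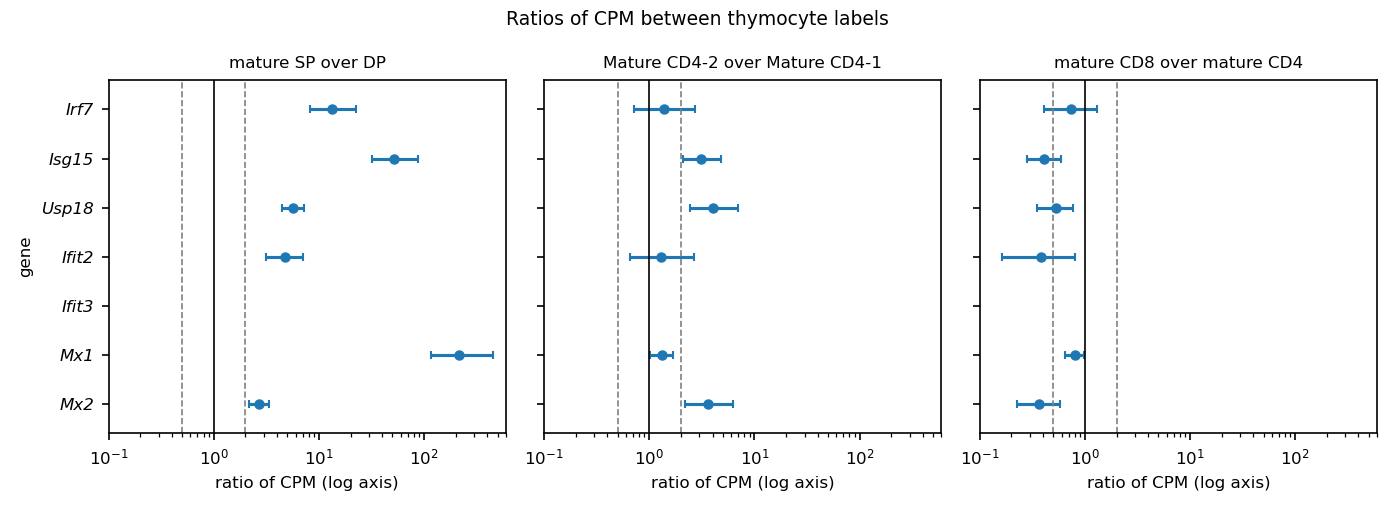
Ratio of CPM for each gene in 3 comparisons of the thymocyte library, on log axes, with points for the ratio, bars for 95% counting intervals, a solid line at 1 and dashed lines at 2-fold in each direction. Genes with fewer than 20 UMIs over both sides have no point, and mature SP over DP runs from 2.72 for Mx2 to 215 for Mx1.

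Within the CD4 lineage, Mature CD4-2 (127 cells) was compared with Mature CD4-1 (121 cells). Isg15 was 3.11 times higher in Mature CD4-2 (2.08 to 4.78), Mx2 3.62 times (2.19 to 6.31) and Usp18 4.01 times (2.43 to 6.95). Mx1 differed by 1.31 (1.03 to 1.69), and the intervals of Irf7, at 1.37, and Ifit2, at 1.30, held 1. So 3 of the 6 genes with enough UMIs were at least 2-fold higher, where 5.80% of all genes were, and none was at least 2-fold lower, where 0.867% were. After thinning, the ratio of Isg15 was 1.27 (0.491 to 3.41), under the threshold. The labels had median depths of 9553 and 7964 UMIs.

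The CD8 labels were smaller, with 27 cells in Mature CD8-2 and 91 in Mature CD8-1, and 4 genes had enough UMIs. Isg15 was 2.42 times (1.20 to 4.89) and Usp18 2.29 times (1.12 to 4.67) higher in Mature CD8-2, each on 19 or fewer UMIs a side. Mx2 at 1.47 and Mx1 at 0.689 had intervals that held 1. Of all genes 10.5% were at least 2-fold higher and 5.04% at least 2-fold lower. On the scale of the median ratio, Usp18 fell under the threshold at 1.95, and with the mean of the cells' CPM both genes did, at 1.81 for Isg15 and 1.93 for Usp18.

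Pooled over both labels of each lineage, mature CD8 cells (118) were set against mature CD4 cells (248), and the count of lower genes changed with the labels pooled. With all labels the ratio was 0.369 for Mx2 (0.224 to 0.583), 0.385 for Ifit2 (0.164 to 0.807) and 0.411 for Isg15 (0.279 to 0.593), each at least 2-fold lower. Usp18 had a ratio of 0.531 (0.354 to 0.779), Mx1 of 0.803 (0.649 to 0.991), and Irf7 of 0.737 with an interval that held 1. So 3 of 6 genes were at least 2-fold lower, where 3.62% of all genes were, and none at least 2-fold higher, where 2.77% were. Mature CD4-1 alone stood close to mature CD8 cells, with Isg15 at 30.5 against 27.2 CPM, Mx2 at 18.7 against 16.9 CPM and Usp18 at 18.7 against 26.4 CPM. Without Mature CD4-2 the ratio was 0.89 for Isg15 (0.538 to 1.48), 0.903 for Mx2 (0.470 to 1.75), 0.448 for Ifit2 (0.173 to 1.09) and 1.41 for Usp18 (0.79 to 2.61), and every interval of the 6 genes held 1. Without Mature CD8-1 it was 0.695 for Isg15, 0.563 for Ifit2 and 0.874 for Usp18, and 1 gene, Mx2, stayed at least 2-fold lower. Thinning left 0% of mature CD8 cells with a UMI of Ifit2, which gives no ratio, and put Irf7 at 0.300 (0.00666 to 2.34).

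The label intCD4 held 45 cells. This comparison was added after its levels had been seen. Over mature CD4 cells, its ratio was 6.77 for Usp18 (5.11 to 8.96), 4.70 for Mx2 (3.38 to 6.50), 3.42 for Isg15 (2.51 to 4.60) and 3.03 for Ifit2 (1.55 to 5.63), while Mx1 at 0.936 and Irf7 at 1.65 had intervals that held 1. So 4 of 6 genes were at least 2-fold higher, where 5.59% of all genes were, and none at least 2-fold lower, where 7.53% were. The comparison was added after these same levels had been seen, so the shares of all genes are no yardstick for this count. The label was not uniform. Of its cells, 68.9% were in the cluster the authors called Mature SP, and these 31 cells had 161 CPM of Usp18 (115 to 221) and 62.1 CPM of Mx2 (34.7 to 102). The other 14 cells had 1253 CPM of Usp18 and 1016 CPM of Mx2. In the first 31 cells Mx2 thus overlapped the 45.8 CPM of mature CD4 cells, while Usp18 did not overlap their 49.8 CPM. Myeloid genes summed to 1 UMI in intCD4 and plasmacytoid genes to 0, and after thinning the ratio was 1.38 for Ifit2 (0.143 to 6.90) and 11.0 for Mx2 (4.16 to 32.3). With the mean of the cells' CPM it was 7.08 for Mx2.

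Among thymic epithelial cells, the labels compared were cTEC of the cortex (448 cells), mTEC1 (482 cells), a medullary label with keratin and Ccl21 transcripts, and mTEC2 (61 cells), the medullary label with Aire. mTEC1 was above cTEC for all 7 genes. Mx1 was at 62.6 CPM in mTEC1 and 16.6 CPM in cTEC, a ratio of 3.76 (2.97 to 4.83). Isg15 was at 217 and 60.2 CPM, a ratio of 3.61 (3.18 to 4.10), Mx2 at 118 and 36.7 CPM, a ratio of 3.23 (2.74 to 3.81), and Usp18 at 79.7 and 30.9 CPM, a ratio of 2.58 (2.15 to 3.11). Ifit3 at 1.77, Irf7 at 1.75 and Ifit2 at 1.51 were higher by less than 2-fold, with intervals above 1. So 4 of 7 genes were at least 2-fold higher, where 9.90% of all genes were, and none at least 2-fold lower, where 5.50% were. After thinning, the ratio was 1.99 for Isg15 (1.33 to 3.03), 5.72 for Mx1 (2.20 to 18.8) and 0.851 for Ifit2 (0.526 to 1.37).

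mTEC2 was unlike both. Against cTEC, Usp18 was 3.70 times higher (2.85 to 4.79) and Isg15 2.41 times (1.94 to 2.98), while Irf7 had a ratio of 0.488 (0.273 to 0.813), at 18.3 CPM in mTEC2 and 37.5 CPM in cTEC. Mx1 at 1.58, Mx2 at 1.21 and Ifit3 at 0.228 had intervals that held 1, the last from 1 UMI in mTEC2. So 2 of 7 genes were at least 2-fold higher, where 18.3% of all genes were, and 2, Irf7 and Ifit3, at least 2-fold lower, where 19.1% were, so these counts stood near the background. Against mTEC1, Irf7 had a ratio of 0.278 (0.157 to 0.457), Mx2 of 0.376 (0.265 to 0.519), Mx1 of 0.419 (0.263 to 0.638) and Ifit3 of 0.129 (0.00321 to 0.748). Isg15 was lower by less, at 0.669, and Usp18 was higher, at 1.43 (1.14 to 1.78). So 4 of 7 genes were at least 2-fold lower than in mTEC1, where 16.7% of all genes were, and none at least 2-fold higher, where 15.6% were. With the mean of the cells' CPM, Isg15 turned to 1.19.

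Ifit2 in mTEC2 rested on 1 cell. That cell held 80 of the 94 UMIs, or 85.1%, and a UMI of Ifit2 was found in 16.4% of mTEC2 cells, against 43.1% of cTEC and 48.5% of mTEC1 cells. The ratio over cTEC was 1.61 with that cell and 0.25 without the highest cell of each side, and over mTEC1 it was 1.07 and 0.177. Cells labelled mTEC2 also held UMIs of genes on the lists of other cell types. The 9 myeloid genes summed to 384 CPM in mTEC2, with all 9 detected and 28 of 61 cells holding at least 3 of these UMIs, against 12.6 CPM in cTEC and 20.7 CPM in mTEC1. The 10 thymocyte genes summed to 190 CPM, against 33.3 and 40.3 CPM, with Rag1 at 0. The 5 plasmacytoid genes summed to 472 CPM, with Tlr7 and Tlr9 at 0, against 6.82 CPM in cTEC and 52.7 CPM in mTEC1. That sum could come only from Siglech, Cox6a2 and Ly6d, and whether it marks plasmacytoid cells was not tested. Whether mTEC2 cells themselves made the RNA of these lists was not tested either. The part of such RNA in the levels of mTEC2 was not tested beyond setting cells aside. The 31 mTEC2 cells left when cells with at least 3 such UMIs were set aside had ratios over mTEC1 of 2.78 for Ifit2 and 0.699 for Mx1, and over cTEC of 4.05 for Ifit2 and 2.55 for Mx1. These Ifit2 ratios rest on the 1 cell with 80 UMIs, since the other mTEC2 cells held too few to give them. The 31 cells held 0 UMIs of Ifit3, which gives no ratio. After thinning, when the 7 genes together kept 25 UMIs in mTEC2, the ratio over cTEC was 4.39 for Mx1 (0.682 to 22.6), 2.61 for Mx2 (0.737 to 7.68), 1.78 for Isg15 (0.755 to 3.75) and 0.375 for Ifit2 (0.0439 to 1.45). The ratio over mTEC1 was then 0.922 for Mx2 (0.285 to 2.32) and 0.768 for Mx1 (0.150 to 2.46), and Irf7 and Ifit3 had 0 UMIs in mTEC2, which bounds the ratio of Irf7 at 0.915 at most and that of Ifit3 at 3.97 at most. A difference of Mx1, Mx2 or Ifit3 between mTEC2 and mTEC1, in either direction, was not detectable at that depth. Without the highest 10% of mTEC2 cells the ratio over cTEC was 1.81 for Isg15 and 0.764 for Mx1.

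**Figure D3:**
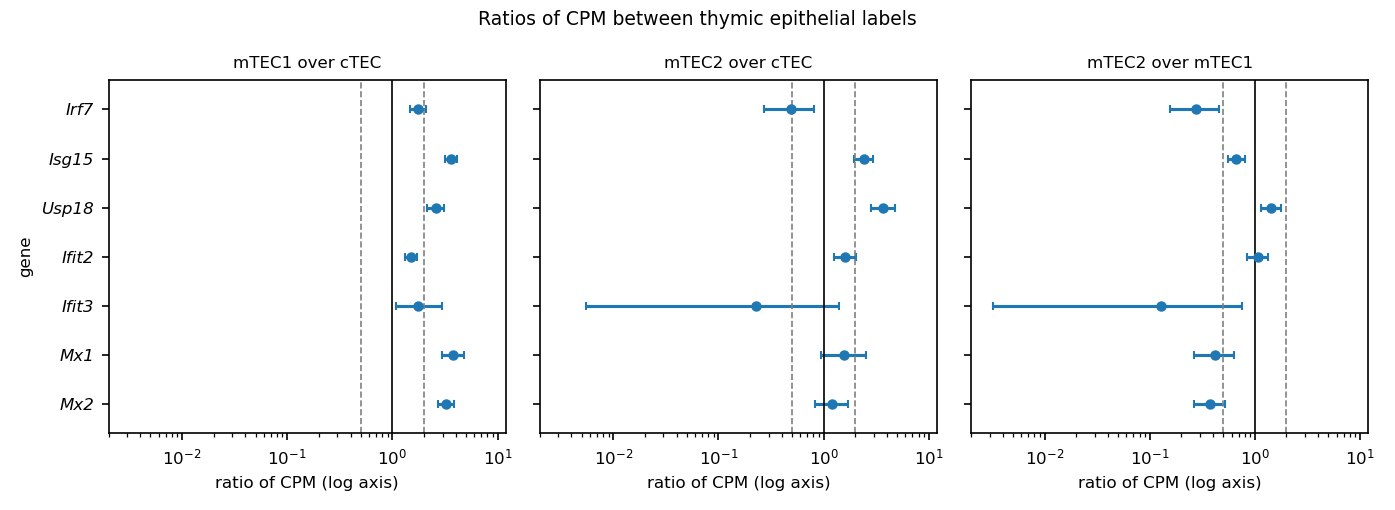
Ratio of CPM for each gene between the epithelial labels mTEC1, mTEC2 and cTEC, on log axes, with points for the ratio, bars for 95% counting intervals, a solid line at 1 and dashed lines at 2-fold. All 7 genes lie above 1 in mTEC1 over cTEC, and Irf7 lies at 0.278 in mTEC2 over mTEC1.

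TEC as a whole (2158 cells of cTEC, mTEC1, mTEC2, mTEC-prol, early Pr, aaTEC1 and aaTEC2) were set against fibroblasts (8216 cells of TMC1 to TMC4 and capFb). None of the 7 genes differed by 2-fold, where 23.0% of all genes were at least 2-fold higher in TEC and 15.7% at least 2-fold lower. Isg15 had the highest ratio at 1.89 (1.81 to 1.98), at 119 CPM in TEC and 62.7 CPM in fibroblasts. Irf7 had the lowest at 0.516 (0.486 to 0.546), at 50.3 and 97.5 CPM, followed by Mx1 at 0.541 (0.502 to 0.583). TMC4 held 2286 of the 4429 UMIs of Mx1 in fibroblasts. Without TMC4, fibroblasts stood at 31.8 CPM of Mx1, 36.3 CPM of Mx2 and 78.7 CPM of Irf7. TEC had 30.4, 61.1 and 50.3 CPM of these genes. On the scale of the median ratio, a shift of 0.15 on the log2 scale, Irf7 at 0.464 and Mx1 at 0.487 lay past 2-fold, and with mitochondrial, ribosomal and haemoglobin genes left out of the total Isg15 did, at 2.01. After thinning, Mx1 lay past it at 0.479, Mx2 stood at 0.665 (0.526 to 0.832) and Ifit3 at 1.02 (0.568 to 1.73).

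Within the fibroblasts, TMC4 (1249 cells) was set against the 4 other labels (6967 cells), a comparison added after the levels had been seen. Mx1 was at 198 and 31.8 CPM, a ratio of 6.23 (5.87 to 6.61), and Mx2 at 202 and 36.3 CPM, a ratio of 5.55 (5.24 to 5.88). Usp18 had a ratio of 3.72 (3.49 to 3.96) and Irf7 of 2.64 (2.51 to 2.77), while Isg15 was 1.63 times higher. Ifit2 was lower, at 0.638 (0.581 to 0.698), and Ifit3 at 0.990 had an interval that held 1 (0.639 after thinning). So 4 of 7 genes were at least 2-fold higher, where 12.7% of all genes were, and none at least 2-fold lower, where 13.2% were. Since TMC4 was picked on the levels counted here, those shares are no yardstick for the count. A UMI of Mx1 was found in 61.2% of TMC4 cells and 17.0% of the other fibroblasts, at median depths of 8717 and 9071 UMIs, and after thinning in 15.3% and 2.93%. In TMC4 the 5 fibroblast genes summed to 4489 CPM, the 4 epithelial genes to 22.8 CPM and the 9 myeloid genes to 26.5 CPM. The 5 genes of the mTEC1 list, which include Ccl21, summed to 22125 CPM in TMC4 and 23051 CPM in mTEC1.

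Endothelium (1070 cells of aEC, capEC and vEC) was high for the Ifit genes, which TMC4 was not. In this comparison, also added after the levels had been seen, Ifit3 was at 63.8 CPM against 9.77 CPM in fibroblasts, a ratio of 6.53 (5.85 to 7.29), and Ifit2 at 176 against 66.5 CPM, a ratio of 2.65 (2.50 to 2.80). Isg15 at 1.60 (1.49 to 1.72) and Mx2 at 1.18 (1.08 to 1.28) were higher by less than 2-fold. Mx1 had a ratio of 0.593, Usp18 of 0.675 and Irf7 of 0.743, all with intervals below 1. So 2 of 7 genes were at least 2-fold higher, where 15.0% of all genes were, and none at least 2-fold lower, where 20.8% were. Here too the choice followed the levels counted, so the shares of all genes are no yardstick.

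How the 7 genes were spread over single cells was described by the share of cells with a UMI of at least 3 of them. This was 16.9% of mature SP cells (13.2 to 21.2) and 0.0384% of DP cells (0.00466 to 0.139), or 2 of 5202. Within mature SP it was 27.6% of Mature CD4-2 cells (20.01 to 36.2), 9.09% of Mature CD4-1 (4.63 to 15.7), 8.79% of Mature CD8-1 and 29.6% of Mature CD8-2 (13.8 to 50.2). Pooled over mature SP, the cells with at least 3 genes were not deeper than the rest, with median depths of 8660.5 and 9696.5 UMIs. Within labels this held only in Mature CD4-2, at 8478 and 9819 UMIs. Such cells were deeper in Mature CD8-2, at 17208 and 13578 UMIs. They were slightly deeper in Mature CD4-1, at 8005 and 7939, and in Mature CD8-1, at 10855 and 10256 UMIs. After thinning, the share was 2.36% in Mature CD4-2 and 1.65% in Mature CD4-1. It was then 0% in Mature CD8-1 (0 to 3.97) and Mature CD8-2 (0 to 12.8). The 37 cells with most UMIs of the 7 genes, 10% of mature SP cells, held 47.0% of those UMIs. In intCD4 the share of cells with at least 3 genes, with all UMIs, was 42.2% (27.7 to 57.9).

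In the stromal library the share was 64.1% of TMC4 cells (61.3 to 66.7), 51.9% of mTEC1 (47.3 to 56.4), 31.1% of mTEC2 (19.9 to 44.3), 27.9% of cTEC (23.8 to 32.3) and 4.16% of Myeloid cells. All 7 genes were found together in 24 TMC4 cells and 10 mTEC1 cells, and in 0 mTEC2 and 0 cTEC cells. These shares depend on depth: in mTEC1 the cells with at least 3 genes had a median of 16135 UMIs and the rest 8570. After thinning to 1000 UMIs the shares were 5.36% of TMC4, 1.37% of mature SP and 0% of DP cells. They were then 2.31% of mTEC1 (1.16 to 4.10), 3.33% of mTEC2 (0.406 to 11.5) and 0.228% of cTEC (0.00577 to 1.26). The share of mTEC2 rested on 2 cells and that of cTEC on 1 cell. The interval of mTEC2 overlapped those of mTEC1 and cTEC.

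**Figure D4:**
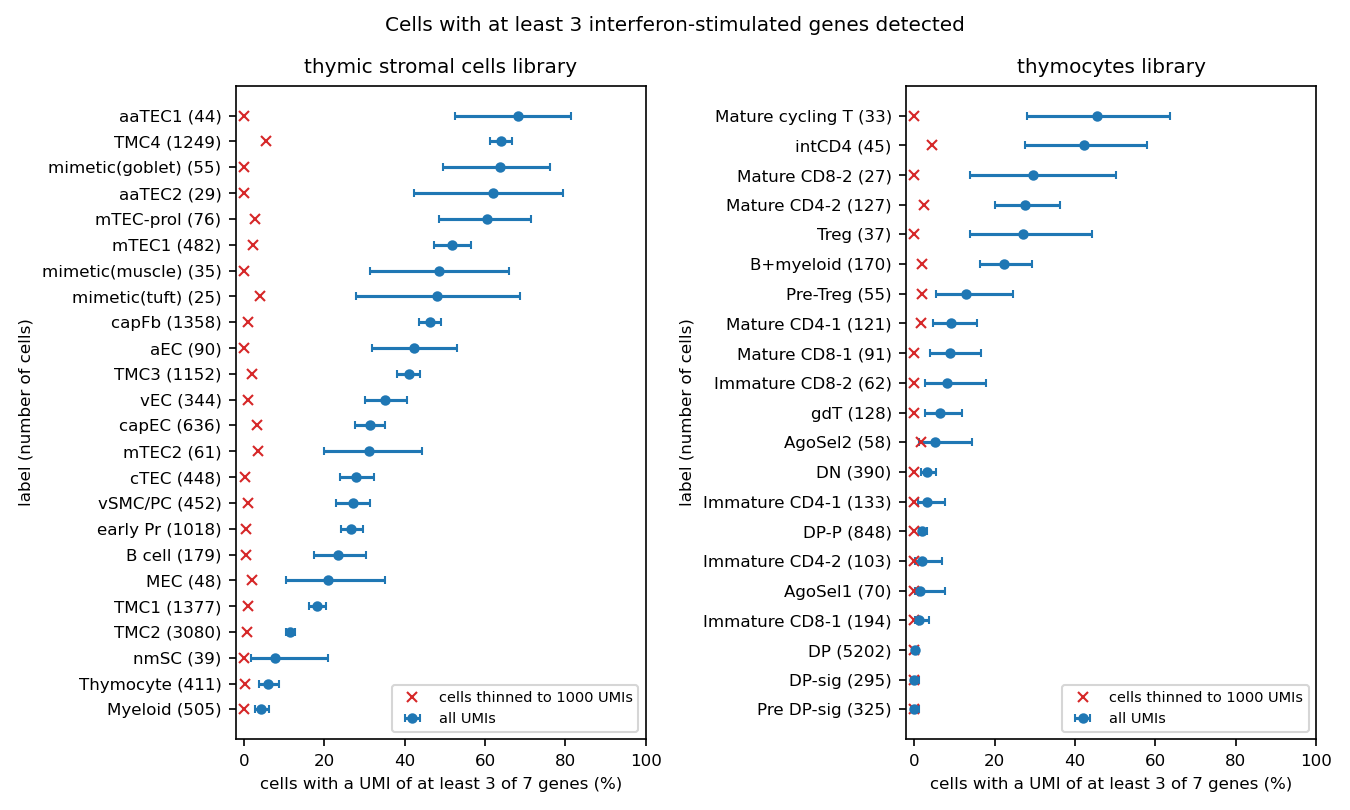
Share of cells with a UMI of at least 3 of the 7 genes in each label of at least 20 cells, with points and bars for all UMIs (95% exact intervals) and crosses for cells thinned to 1000 UMIs. TMC4 stands at 64.1% with all UMIs and 5.36% after thinning, and Mature CD4-2 at 27.6% and 2.36%.

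The other genes of the pathway were read from lists, and some genes, such as Irf9 and Socs1, stand in more than 1. Of 34 other type I interferon-stimulated genes with enough UMIs, 24 were at least 2-fold higher in mature SP than in DP cells and 0 at least 2-fold lower, where 11.2% and 21.0% of all genes were, with a median ratio of 3.81 against 0.80 over all genes. The same shares of all genes apply to the lists that follow for these cells. The lists too were chosen with earlier results of these data known, so these shares are no yardstick for their counts. The widest ratios were those of Rtp4, a chaperone of receptors, at 149 (62.4 to 466), Samhd1, which breaks down nucleotides, at 72.9 (35.8 to 173), and Zbp1, a sensor of Z-form nucleic acid, at 47.3 (26.0 to 94.4). Of 10 genes known for induction by interferon gamma, 7 were at least 2-fold higher and 1, Socs1, a damper of Jak signalling, at least 2-fold lower, at 0.321 (0.244 to 0.416). The widest ratios among them were those of Nlrc5, the activator of class I genes, at 10.3, and of the GTPases Irgm at 10.1 and Gbp2 at 4.19.

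The receptor and signalling genes differed in both directions. Irf9, a subunit of the complex that binds the response element, was at 33.9 CPM in mature SP and 5.02 CPM in DP cells, a ratio of 6.74 (5.12 to 8.91). Of the 13 genes of this list with enough UMIs, 4 were at least 2-fold lower in mature SP cells, Socs1 and Ifnar2 among them, against 21.0% of all genes. Ifnar2, the signalling chain of the type I receptor, was at 42.7 CPM in mature SP and 164 CPM in DP cells, a ratio of 0.261 (0.221 to 0.307). Ifnar1, its partner, was at 98.6 and 125 CPM, a ratio of 0.787 (0.702 to 0.88). Of 6 sensors and inducers, 2 were at least 2-fold higher, Sting1, which relays cytosolic DNA sensing, at 15.6 (9.82 to 25.6) and Irf8 at 2.03 with an interval that held 1, and Tlr3 stood at 1.98.

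Between mTEC2 and cTEC, 18.3% of all genes were at least 2-fold higher and 19.1% at least 2-fold lower. Of 35 other type I genes, 6 were at least 2-fold higher in mTEC2 and 7 at least 2-fold lower, shares close to those of all genes, with a median ratio of 0.835 against 0.906 over all genes. Epsti1 stood at 145 (38.2 to 1232), from 2 UMIs in cTEC, Samhd1 at 17.7 and Oas1b, of the family that makes oligoadenylate, at 0.115. Of 16 interferon gamma genes, 9 were at least 2-fold higher and 0 at least 2-fold lower, with a median ratio of 2.25. Gbp1, a GTPase, had 0 UMIs in mTEC2 against 34 in cTEC, an upper bound of 0.503 on its ratio from the floor of 3 UMIs, and Gbp5 stood at 0.607. The chemokine Cxcl11 was at 526 CPM in mTEC2 and 1.60 CPM in cTEC, a ratio of 328 (165 to 763), Cxcl9 had a ratio of 14.0 and Nlrc5 of 10.5. Of 14 receptor and signalling genes, 1 was at least 2-fold higher, Ifngr2, a chain of the interferon gamma receptor, at 4.97, and 1 at least 2-fold lower, Socs3 at 0.167, with Socs1 at 1.90. Of 7 sensors and inducers, 2 were at least 2-fold higher, Irf5 at 52.4 and Cgas at 7.48, and Irf8 had a ratio of 0.558. The myeloid and thymocyte UMIs of mTEC2 given above stand beside these values as well, and their part in them was not tested.

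In TMC4 over the other fibroblasts, 15 of 37 other type I genes were at least 2-fold higher and 0 at least 2-fold lower, where 12.7% and 13.2% of all genes were, with a median ratio of 1.72 against 1.05 over all genes, and 10 were on the scale of the median ratio. In mTEC1 over cTEC it was 10 of 37 higher and 0 lower, where 9.90% and 5.50% of all genes were, with a median ratio of 1.501, against 1.01 over all genes.

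Transcripts of the interferons themselves were close to absent. Ifnb1, Ifna2, Ifna4, Ifna5, Ifne, Ifnl1 and Ifnl3 had 0 UMIs in both libraries. The floor of 3 UMIs would be 0.0228 CPM over all annotated stromal cells and 0.0466 CPM over the thymocyte library. Ifna1 had 1 UMI in the stromal and 2 in the thymocyte library, and Ifnk 15 and 3. Ifng, the type II interferon, had 50 UMIs in the thymocyte library, 19 of them in double-negative cells (DN), 16 in proliferating DP-P cells, 10 in DP cells and 1 in the 4 mature labels, and 5 in the stromal library, all in cells labelled Thymocyte. For transcripts that few cells make at a time, these numbers limit only what was captured in these cells.

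The type III receptor chain Ifnlr1 was found mostly in the stromal library. It had 2346 UMIs there, with 53.4 CPM in mimetic(tuft) from 15 UMIs, 38.9 CPM in TMC4, 24.3 CPM in mTEC1, 22.9 CPM in mTEC2 and 21.7 CPM in cTEC, and 26 UMIs in the thymocyte library. The difference of TMC4 from the other fibroblasts was 2.59-fold (2.31 to 2.90), while mTEC2 over cTEC at 1.06 had an interval that held 1. Ifnar1 and Ifnar2 were highest in capEC in the stromal library, at 134 and 174 CPM.

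The genes whose pattern over labels was most like that of the 7 genes were found by Pearson correlation of log2(CPM + 1) with their mean, over labels of at least 50 cells, as a description, since labels share a library and differ in depth. In the stromal library (18 labels) the nearest were Phc2 at 0.93, Parp14 and Rtp4 at 0.91 each, Parp9 at 0.90, Rig1, Ddx60, Trafd1, Ctnnd1, Traf5 and Xaf1, the last at 0.88. Of these, Parp14, Rtp4, Parp9 and Xaf1 stand on the list of other type I genes. In the thymocyte library (17 labels) they were Epsti1 at 0.93, Src at 0.92, Rnf213 at 0.90, Ms4a4a, ND4, RT1-CE16, Il10ra, Tapbp, Cd200r1 and Acp3, the last at 0.89, and of these only Epsti1 is on the list. The cut at 50 cells left out intCD4, Treg, Mature cycling T and Mature CD8-2. Apart from Rnf213 and Acp3, the genes named for the thymocyte library were highest in B+myeloid. All those named for the stromal library were lowest in Myeloid. How far the correlations rest on these 2 labels was not tested. Each of the 7 genes was also set against the mean of the other 6. In the stromal library the correlation was highest for Mx2 at 0.86 and lowest for Ifit2 at 0.23, and in the thymocyte library highest for Irf7 and Isg15 at 0.86 each and lowest for Ifit3 at 0.37.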

How the data were processed

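Cells of 2 droplet libraries, thymic stromal cells and thymocytes, were analysed, with 1 sample per group. The deposited counts are whole numbers of UMIs, given for every gene in every barcode. Per the submitters' processing notes, Cell Ranger 8.0.0, Seurat 5.3.0 and the build mRatBN7.2 were used, and the annotation version is not given in the sources used here. The authors also deposited counts of UMIs and genes per cell and a percent of mitochondrial UMIs. A cell's label is the authors' projected label, or their first cluster where none was given. No doublet caller was run, and barcodes without annotation were left out.

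UMIs were summed per label and given as CPM with exact Poisson intervals. Intervals are exact Clopper-Pearson for shares and exact conditional binomial for ratios, at 95%, which cover counting error and nothing else. A side with 0 UMIs was set to 3 UMIs, which gives a bound and not a ratio, and no ratio was given where both sides held 3 or fewer. Counts of 2-fold differences cover genes with at least 20 UMIs over both sides. Mx1 and Mx2 are paralogues, as are Ifit2 and Ifit3, and how reads shared between copies were counted was not tested. The 7 genes and all lists were chosen with earlier results of these data known. In every comparison, the shares of all genes are therefore no yardstick for counts of these genes. Outside the 7, the text names from each list the 3 genes with the widest ratio in mature SP over DP and in mTEC2 over cTEC, the interferon receptor chains, the interferons, and the 10 genes most alike in pattern among those of at least 100 UMIs. A gene that this rule names is not reported here. Socs1 in mature SP over DP and Gbp1 and Gbp5 in mTEC2 over cTEC were named after their values were seen. Promoters came from RefSeq build GRCr8, where Isg15, Usp18, Ifit2 and Mx2 were not matched. Values were computed in Python 3.11.15 with pandas 2.3.3, NumPy 2.4.6 and SciPy 1.17.1.

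The ratios were tested on simulated data for mature SP over DP, with 12666 genes of which 200 were changed. Of genes made 4-fold higher 100% were called at 2-fold, of genes made 4-fold lower 92%, and of unchanged genes 3.05%, and 96.1% of the intervals held the true ratio. These shares bear on counting error alone. How the intervals fare with spread between cells was not tested. In mature SP, 10% of cells held 47.0% of the UMIs of the 7 genes.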

Additional observations from a re-analysis of the deposited data

Results flagged for a closer look

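Barcodes of the stromal library that carry no annotation were left out of all comparisons and held a signal of the 7 genes. In 2934 such barcodes, with 8663291 UMIs in all, the 7 genes summed to 2357 UMIs, or 272 CPM (261 to 283), against 398 CPM over the annotated cells. The point value of each of the 7 genes was below its annotated level there, from 46.3 against 48.5 CPM for Usp18 to 4.50 against 12.3 CPM for Ifit3. For Usp18 the interval (41.9 to 51.0) held the annotated level, so that difference was not resolved. The 28 barcodes without annotation in the thymocyte library held 1 UMI of the 7 genes, of Usp18.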

How the results depend on the processing

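Each result was recomputed with other cell filters, depths, labels, scales and folds, 875 values in all. Of 620 ratios of single genes, 523 stayed within their counting interval, 90 moved beyond it and 7 turned, which means that a ratio whose interval excluded 1 crossed to the other side of 1. Ratios whose interval held 1 also crossed it under some settings. In 11 cases 1 side was left with 0 UMIs, which gives a bound only, and these are not among the ratios. Of 222 counts of genes past 2-fold, 200 stayed within 1.5 times. No cause of these shifts was tested. With cells thinned to 1000 UMIs, 0 genes were at least 2-fold higher in Mature CD8-2 over Mature CD8-1 (2 without thinning), since none had a ratio at that depth. For mTEC2 over mTEC1, 1 was then lower (4), for mTEC2 over cTEC 1 lower (2), and for TEC over fibroblasts 1 lower (0). The share of cells with at least 3 of the genes was 1.37% in mature SP (16.9%), 0% in DP (0.0384%), 0.935% in TEC (35.2%) and 1.63% in fibroblasts (30.5%). At a fold of 1.5, 4 genes were higher in mTEC2 over cTEC (2), 7 in mTEC1 over cTEC (4) and 1 in TEC over fibroblasts (0), and 2 were lower in TEC over fibroblasts (0), 1 in TMC4 over other fibroblasts (0) and 1 in endothelium over fibroblasts (0). With the mean of the cells' CPM, 0 were higher in Mature CD8-2 over Mature CD8-1 and 1 lower in TEC over fibroblasts. On the median-ratio scale these were 1 and 2. Leaving mitochondrial, ribosomal and haemoglobin genes out of the total put 1 higher in TEC over fibroblasts. Without cells holding 3 thymocyte or myeloid UMIs, 1 was higher and 2 lower in mTEC2 over mTEC1, and 4 higher and 1 lower in mTEC2 over cTEC. Without the highest 10% of mTEC2 cells, 1 was higher over cTEC. In mature CD8 over mature CD4, 1 was lower (3) without Mature CD4-2 and also 1 without Mature CD8-1. With first clusters as labels the share in DP was 0.15%. That setting was run only where the clusters hold both sides, which was mature SP over DP, TEC over fibroblasts and the shares of cells.

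The 7 ratios that turned were those of Usp18 in mature CD8 over mature CD4 at 1.41 (without Mature CD4-2), of Isg15 in mTEC2 over mTEC1 at 1.19 (mean of the cells' CPM), of Ifit2 in mTEC2 over cTEC at 0.375 (thinned), 0.25 (without the highest cell of each side) and 0.297 (without the highest 10% of mTEC2 cells), of Ifit2 in mTEC1 over cTEC at 0.851 (thinned) and of Ifit3 in TEC over fibroblasts at 1.02 (thinned). Leaving out each mature label in turn, mTEC2 without its highest cells, and the comparisons of intCD4, TMC4 and endothelium were chosen after seeing the data. No paired analysis was possible because there was a single sample in every group. Depth limits labels of few cells most, since the whole thymocyte library held 4631 UMIs of the 7 genes.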

Other observations

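Labels outside the comparisons also held cells with several of the genes. At least 3 of the 7 were found in 45.5% of Mature cycling T cells (28.1 to 63.6, 33 cells), 27.0% of Treg cells (13.8 to 44.1, 37 cells) and 12.7% of Pre-Treg cells (5.27 to 24.5, 55 cells). In the stromal library it was 68.2% of aaTEC1 (52.4 to 81.4, 44 cells), 63.6% of mimetic(goblet) (49.6 to 76.2, 55 cells) and 60.5% of mTEC-prol (48.7 to 71.6, 76 cells). Thinned to 1000 UMIs, the share was 0% in Mature cycling T, Treg, aaTEC1 and mimetic(goblet) cells, 1.82% in Pre-Treg and 2.63% in mTEC-prol cells.

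The stromal library also held 411 cells labelled Thymocyte, with Isg15 at 23.3 CPM, Mx1 at 35.0 CPM and Irf7 at 49.0 CPM. Of their UMIs of the 7 genes, 80.9% were in 42 cells, and 24 cells held at least 3 of the genes, with a median of 13460 UMIs against 2589 in the rest. B cells of the same library (179 cells) held at least 3 of the genes in 23.5% (17.5 to 30.4).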
